A study of Homo sapiens with 16 samples.

Results

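The broad EZH2 domains of THLE-2 are 367 stretches of chromatin, each of 5000 bp or more, that were called as EZH2 peaks. They were taken from the 2081 EZH2 replicate 1 peaks on chromosomes 1 to 22 and X and were selected on 2 measured values, a length of 5000 bp or more and an overlap of at least 1 bp with any EZH2 replicate 2 peak. They make up 17.6% of the replicate 1 peaks, and the 8 deposited lists hold 172991 peaks on these chromosomes. Since replicate 1 length and the presence of a replicate 2 peak chose the members, both are given below as a description without a test.

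Chromatin immunoprecipitation followed by sequencing (ChIP-seq) was done in HepG2, labelled as liver carcinoma cells, and in THLE-2, labelled as normal liver epithelial cells. HepG2 had 2 JARID2 libraries, and THLE-2 had 2 libraries each of EZH2, JARID2 and the histone mark H3K27me3, all from untreated cells as far as the labels say. Each of these 8 libraries has its own input of sonicated chromatin, and the series calls the 2 replicates of a group biological. EZH2 in HepG2 was not analysed here. HepG2 comes from a liver tumour and THLE-2 from liver epithelium immortalised with a viral T antigen. Each stands for its cell type by a single line. Peak lists measure no expression, and the identity of the cells could not be checked against marker genes.

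EZH2 is the catalytic subunit of Polycomb repressive complex 2. It places methyl groups on lysine 27 of histone H3, and the trimethylated form, H3K27me3, marks genes kept silent. JARID2 is an accessory subunit that helps the complex to bind chromatin. In mammalian cells the complex gathers at CpG-rich starts of developmental genes that the cell type does not use, and it can spread from there over several kilobases.

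Of the 350 domains on the chromosomes that the promoter table covers, 193 held the start of a protein-coding gene, and 4 of the longest show the DNA at such starts. The following RefSeq promoters (GRCh38.p14) run from 250 bases before to 50 bases after the annotated start, are written 5′ to 3′ and carry each CG dinucleotide in capitals. HMX3, a homeobox gene of the inner ear and hypothalamus, has its promoter at chr10:123135720-123136019 on the plus strand. SKOR1, a neuronal corepressor gene, has it at chr15:67825259-67825558 on the plus strand. PAX7, a factor of muscle stem cells, has it at chr1:18630596-18630895 on the plus strand. HAND2, a factor of heart and limb, has it at chr4:173530180-173530479 on the minus strand.
HMX3: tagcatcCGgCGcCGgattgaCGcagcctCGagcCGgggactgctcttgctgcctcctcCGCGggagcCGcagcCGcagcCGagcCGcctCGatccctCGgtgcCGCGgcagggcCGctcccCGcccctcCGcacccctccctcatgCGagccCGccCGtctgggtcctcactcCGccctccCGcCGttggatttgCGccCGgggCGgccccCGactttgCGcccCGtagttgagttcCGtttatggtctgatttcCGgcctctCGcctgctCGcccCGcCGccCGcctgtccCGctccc
SKOR1: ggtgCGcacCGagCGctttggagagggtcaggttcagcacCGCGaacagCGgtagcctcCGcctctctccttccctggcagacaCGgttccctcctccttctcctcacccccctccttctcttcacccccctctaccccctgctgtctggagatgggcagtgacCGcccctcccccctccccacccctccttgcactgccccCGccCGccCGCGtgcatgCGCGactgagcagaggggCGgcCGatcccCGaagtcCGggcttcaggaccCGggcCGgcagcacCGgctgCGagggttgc
PAX7: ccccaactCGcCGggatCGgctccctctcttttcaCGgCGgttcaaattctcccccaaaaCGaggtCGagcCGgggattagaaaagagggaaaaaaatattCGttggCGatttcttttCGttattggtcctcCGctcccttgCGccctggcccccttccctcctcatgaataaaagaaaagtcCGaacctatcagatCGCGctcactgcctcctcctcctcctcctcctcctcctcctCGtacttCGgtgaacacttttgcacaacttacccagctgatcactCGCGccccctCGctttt
HAND2: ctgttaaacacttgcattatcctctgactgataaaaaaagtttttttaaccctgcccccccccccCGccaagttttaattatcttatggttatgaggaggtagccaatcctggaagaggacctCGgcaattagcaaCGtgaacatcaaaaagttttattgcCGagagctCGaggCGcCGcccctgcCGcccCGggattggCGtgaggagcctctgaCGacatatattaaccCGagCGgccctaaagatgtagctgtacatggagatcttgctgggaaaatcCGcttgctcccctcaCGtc
These 4 windows hold 39, 23, 21 and 15 CG dinucleotides in the order printed. Over the 261 promoters whose start lay in a domain, which belong to 199 genes, the median was 24 CG dinucleotides and 66.3% G+C. The 609 promoters with a start in a narrower EZH2 peak, that is a replicate 1 peak under 5000 bp that replicate 2 overlapped, had medians of 29 and 70.3%. All 22132 protein-coding promoters of the table had medians of 21 and 62.3%. Promoters of domains thus stood between those of narrower peaks and those of all genes. The letters TATAAA, searched on both strands, were found in 10.7% of domain promoters, 6.08% of narrower-peak promoters and 9.46% of all. The letters CGCGCG, which read the same on both strands, were found in 31.4%, 38.1% and 21.4% of these sets.

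The domains also held miRNA genes, and the mature sequences below show what 5 of them encode. RefSeq (GRCh38.p14) gives them 5′ to 3′, with the seed, bases 2 to 8, in capitals. The hairpin of miR-9 lies at chr1:156420341-156420429 on the minus strand, that of miR-10b at chr2:176150303-176150412 and that of miR-129 at chr11:43581394-43581483, both on the plus strand. Those of miR-615 at chr12:54033950-54034045 and miR-1 at chr20:62554306-62554376 are also on the plus strand.
hsa-miR-9-5p: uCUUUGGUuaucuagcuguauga
hsa-miR-10b-3p: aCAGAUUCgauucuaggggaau
hsa-miR-129-5p: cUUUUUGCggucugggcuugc
hsa-miR-615-3p: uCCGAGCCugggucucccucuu
hsa-miR-1-3p: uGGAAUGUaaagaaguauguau
No seed is shared among these 5. miR-9 is a miRNA of neural progenitors, miR-1 of heart and skeletal muscle, and miR-10b and miR-615 are encoded within HOX clusters. The hairpins of 12 of 1911 annotated miRNA genes (0.628%) lay in or across a domain, and 10 of the 1558 hairpins in the sequence table did (0.642%). The domain at MIR9-1 was 6024 bp long, with EZH2 fold enrichments over input of 8.29 in replicate 1 and 6.47 in replicate 2. Fold enrichments here are the authors' values for a peak and only rank or describe peaks within a list. The other 2 genes for miR-9 lay near domains but outside them, MIR9-2 at 4390 bp and MIR9-3 at 36996 bp. MIR124-3, a gene for the neuronal miR-124, lay in a domain of 8122 bp with folds of 9.72 and 6.97. MIR10B lay in the HOXD4 and HOXD3 domain, with folds of 15.12 and 13.16, and MIR1-1 lay in a 7497 bp domain with folds of 9.47 and 6.07.

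The domains differed widely in length, and EZH2 replicate 2, whose overlap was part of the rule, covered most of their bases. They were 5000 to 28079 bp long, with a median of 6884 bp, and covered 2.94 Mb, which is 39.9% of all bases under EZH2 replicate 1 peaks. The shortest members were RAB11FIP4 at 5000 bp, SALL1 at 5003 bp and CDH22 at 5005 bp, and just below the limit stood peaks at LINC01391 (4995 bp), LOC124905120 (4991 bp) and NDRG4 (4990 bp). Lengths ran on across the limit without a gap. Replicate 2 peaks covered 92.1% of domain bases, and 90.4% of the bases of the 947 narrower peaks. Both sets were chosen for a replicate 2 overlap, so 32 replicate 1 peaks of 5000 bp or more without one are left out. At 306 domains the longest replicate 2 peak also reached 5000 bp, 256 domains were covered to 90% or more, and 3 to less than 50%. Across the 367 domains, all measured in the same 2 libraries, the log2 lengths in both replicates had a Pearson's r of 0.80 and a Spearman's rho of 0.76. Their fold enrichments in both replicates had an r of 0.52 and a rho of 0.53.

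**Figure D1:**
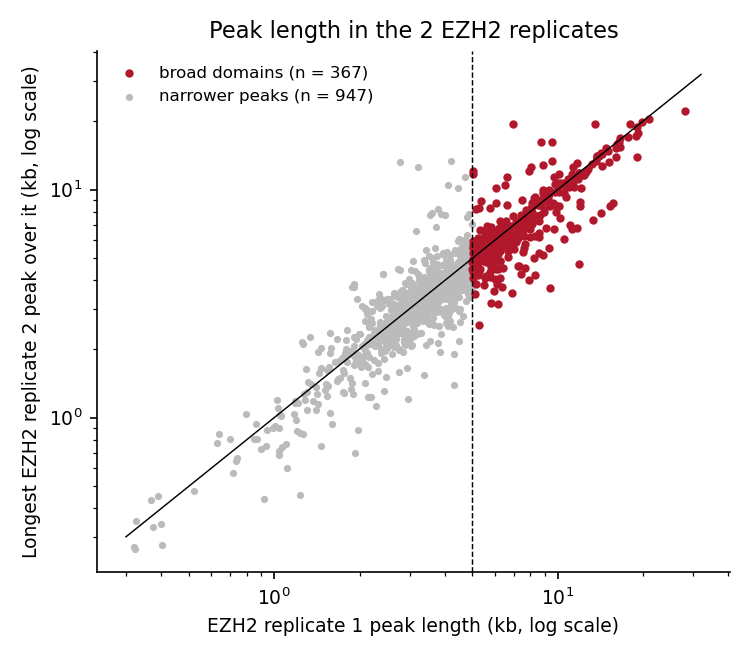
Length of each EZH2 replicate 1 peak against the longest EZH2 replicate 2 peak over it, in kb on log axes, for 367 broad domains and 947 narrower peaks. Replicate 1 peaks without a replicate 2 overlap are not shown. The dashed line is the 5000 bp limit and the solid line marks equal lengths. The points lie along the line of equal lengths, and 306 domains also reached 5000 bp in replicate 2.

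Enrichment over input was moderate. The fold enrichment of the domains had a median of 9.05 in replicate 1 (4.04 to 19.9) and of 7.15 in replicate 2 (3.31 to 15.1). The narrower peaks had medians of 7.55 and 5.75. Over the domains, the log2 length in replicate 1 and the log2 fold in replicate 2 had an r of 0.30 and a rho of 0.26. The authors' false discovery rate, from calling peaks with IP and input exchanged, was 100% at 338 domains, and 29 domains had a MACS score (-10 times log10 of p) under 100. A long domain could have a low score, such as that at HAND2, with 2639 tags over 19000 bp and a score of 65.42.

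The longest domains belonged to factors that set the identity of neurons, muscle and organs other than liver. The longest of the 367 spanned LBX1, a homeobox gene of dorsal spinal cord and migrating muscle precursors, on chromosome 10 at 101213300 to 101241378 (28079 bp), with EZH2 folds of 12.04 in replicate 1 and 9.17 in replicate 2. HMX3 and its neighbour HMX2 shared a domain of 20935 bp at 123131652 to 123152586 on the same chromosome, with folds of 10.67 and 10.87. SP9, a zinc finger gene of forebrain interneurons, followed with 19849 bp and folds of 11.53 and 9.39. All 3 lay above the median fold of the domains in both replicates.

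Further down in length came SKOR1 (19145 bp, folds 10.97 and 10.18), PAX7 (19047 bp, 13.98 and 12.08), HAND2 (19000 bp, 9.29 and 12.86) and LHX2, a factor of forebrain and eye (18824 bp, 13.27 and 8.35). PAX2, a factor of kidney and midbrain, had 17943 bp with folds of 11.7 and 10.58, and OLIG2, a factor of motor neurons and oligodendrocytes, had 17730 bp with 15.17 and 11.07. EN2, a factor of midbrain and cerebellum, had 16641 bp with 16.58 and 8.46. GATA3, a factor of T cells and the inner ear, had 16532 bp with 9.76 and 9.44, and NKX2-3, a factor of spleen and gut, had 16411 bp with 15.67 and 7.31.

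Of the 12 highest replicate 2 folds, those of HAND2 and PAX7 belonged to the longest domains, and several others were at domains that held no end of a protein-coding gene. The highest was a domain of 7298 bp on chromosome 6 at 10380731 to 10388028, which no annotated gene end reached, with folds of 16.45 in replicate 1 and 15.11 in replicate 2. A domain of 5013 bp on chromosome 10 at 100652626 to 100657638 had 8.34 and 14.17. It was followed by SOX2-OT, a long noncoding RNA gene around the stem cell factor SOX2 (10.08 and 14.02), and ONECUT3, a homeobox gene of neurons (15.14 and 13.54). SHISAL1 (14.65 and 13.23) was also among the highest. FOXD3, a forkhead gene of the neural crest, had the highest replicate 1 fold of those named here, 18.47, with 12.43 in replicate 2.

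Developmental transcription factors had an end in 143 of the 367 domains. Of 19974 protein-coding genes, 299 had an annotated end in a domain (1.5%), whereas 142 of the 348 genes on 9 lists of developmental transcription factors did (40.8%). A further 599 protein-coding genes (3.0%) had an end in a narrower peak but none in a domain, and so did 42 of the 348 (12.1%). Genes with ends in both were counted under domains. These transcription factors therefore stood more often in domains than in narrower peaks alone, while all genes stood more often in narrower peaks alone. Besides these 143 domains, 135 held ends of other protein-coding genes alone, and 89 held none. Of those 89 domains, 36 lay within or across a protein-coding gene, 35 had only a long noncoding RNA gene and 18 had neither.

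Homeobox genes were the largest group. Of 39 HOX cluster genes, which set position along the body axis, 19 had an end in a domain (48.7%), and of 120 other homeobox genes 63 did (52.5%). High replicate 2 folds among these other genes were those of ONECUT3, given above, and BARX2 (9.85 in replicate 1 and 11.57 in replicate 2). PAX genes were in domains for 5 of 9 members, namely PAX1, PAX2, PAX5, PAX7 and PAX9, and GATA genes for GATA3, GATA5 and GATA6 of 6. T-box genes came to 7 of 17, with the cortical factor TBR1 at folds of 7.0 and 9.24. The remaining families had smaller shares, with 5 of 19 SOX genes, 10 of 44 forkhead genes, 14 of 52 basic helix-loop-helix (bHLH) genes and 16 of 42 developmental zinc finger genes. ZIC1 and ZIC4, factors of the cerebellum, shared a domain with folds of 7.78 and 9.8. SOX genes were as frequent in narrower peaks alone, at 5 of 19.

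Genes for signals and for mature neurons had shares below the 40.8% of the transcription factors and above the 1.5% of all protein-coding genes. Of 48 WNT pathway genes 7 did (14.6%), among them the ligand gene WNT3A, with a domain of 7974 bp and folds of 8.77 and 7.23. Of 59 genes for BMP, TGF-beta, FGF and hedgehog signals 7 did (11.9%), among them IHH, a hedgehog of cartilage (14.5 and 9.02), and FGF8, an organiser signal of limb and midbrain (8.06 and 8.62). Of 117 genes for neuronal channels and receptors 7 did (5.98%), with the glycine transporter gene SLC6A5 first (15.12 and 10.41). The neuronal list was found mainly in narrower peaks, with 26 genes there and in no domain (22.2%). The other lists lay near the 1.5% of all genes, which is no result about them. An end in a domain was found for 0 of 95 hepatocyte function genes, 0 of 78 ribosomal protein genes, 1 of 72 cell cycle and replication genes (1.39%, the cyclin gene CCND2) and 1 of 52 tumour suppressor and liver cancer genes (1.92%, the kidney factor gene WT1).

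**Figure D2:**
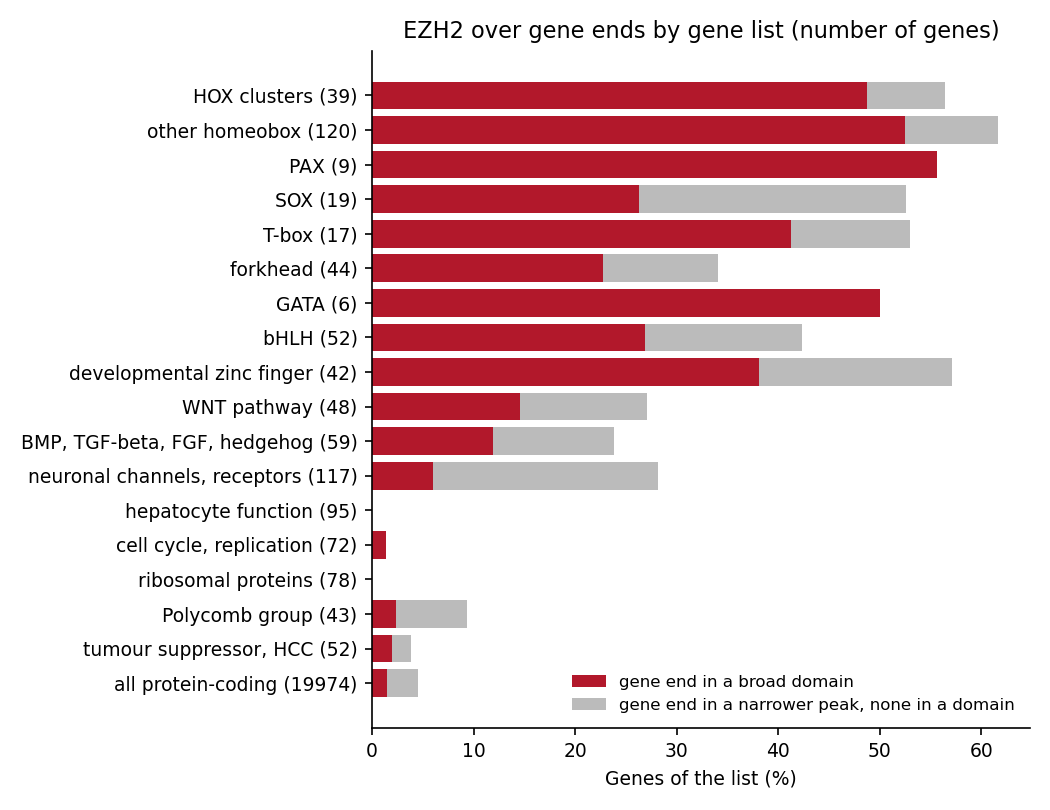
Share of the genes of each list, in percent, with an annotated end in a broad EZH2 domain (red) or in a narrower EZH2 peak and no domain (grey), with the number of genes of the list in parentheses. The 9 lists of transcription factors reach up to 55.6% in domains, for PAX genes, while the neuronal list has 5.98% in domains and 22.2% in narrower peaks alone.

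Genes outside the 17 lists made up 134 of the 299. That is 0.703% of the 19067 protein-coding genes on no list, below the 1.5% of all protein-coding genes. Long domains among them held SKOR1, DMRTA2, a factor of the cortical hem (14830 bp, folds 9.85 and 9.58), and MECOM, a factor of blood stem cells (12361 bp, 13.51 and 10.34). EBF3, a factor of neuronal differentiation (11881 bp, 15.21 and 6.31), and SIM1, a factor of the hypothalamus (10912 bp, 14.64 and 8.77), were also among them. A domain of 10543 bp spanned CHAT and SLC18A3, which encode the enzyme that makes acetylcholine and the transporter that loads it into vesicles, with folds of 8.36 and 8.95. A domain of 5871 bp held GCGR, the glucagon receptor gene, whose product acts in liver, with folds of 12.32 and 9.38.

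Domains often came in groups. With a gap of less than 50 kb as the limit, 106 domains formed 46 groups of 2 to 5. The 3 groups of 5 were those at HOXC, at ZIC1 and ZIC4 and at HOXD, and groups of 3 stood, among others, at ZIC2 and ZIC5, at DLX5 and DLX6 and at PDX1 and CDX2. In 21 cases the gap to the neighbour was under 1000 bp. Domains covered 36.4% of HOXC (5 domains), 27.2% of HOXD (5), 25.0% of HOXA (4) and 12.1% of HOXB (3). In HOXC they took in HOXC13, HOXC12, the long noncoding RNA gene HOTAIR, and 2 domains over HOXC8, HOXC4, HOXC5 and HOXC6. The domain at HOXA2 and HOXA3 had the highest fold of the HOX domains in replicate 1 (17.55, and 11.3 in replicate 2), and that at HOXD4 and HOXD3 the highest in replicate 2.

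The position of the start within a domain varied. In the 148 domains with a single protein-coding start of the promoter table, a median of 3353 bp of the domain lay upstream of the start (292 to 10970 bp) and 3932 bp downstream (426 to 17433 bp). The length limit and the choice of domains with a start inside bear on these values, and 193 of 350 domains held any start. The downstream stretch was the longer in 93 of the 148. The summit lay a median of 477 bp downstream of the start, and within 1000 bp of it in 74 domains.

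Peaks of the library labelled H3K27me3 replicate 2, the mark that EZH2 lays down, covered most of the domains, and those of the library labelled replicate 1 covered nearly none. Whether each library holds the target its label names was not tested, and every result on the mark is given per library. In replicate 1, 11 domains (3.0%) overlapped a peak and 2.48% of domain bases were covered. In replicate 2, 273 domains (74.4%) overlapped a peak and 71.5% of bases were covered. Over all 2081 EZH2 replicate 1 peaks, 9.95% overlapped H3K27me3 replicate 1 and 66.4% overlapped replicate 2. The domains thus stood below this background in replicate 1 and somewhat above it in replicate 2. However, the background includes peaks that EZH2 replicate 2 did not overlap. Of the 947 narrower peaks, which it did overlap, 6.02% had an H3K27me3 replicate 1 peak and 78.0% a replicate 2 peak. Against these the domains stood lower in both H3K27me3 replicates. Mean coverage of domain bases over both libraries was 37.0% ± 48.8 (SD, n = 2), a value that describes neither library. Narrower peaks were covered to 4.76% and 74.2%. Domains minus narrower peaks came to -2.28 percentage points in replicate 1 and -2.73 in replicate 2 (mean -2.51 ± 0.32, SD, n = 2), and no test was run on 2 libraries.

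Coverage by H3K27me3 replicate 2 was nearly all or none. No base was covered in 94 domains, 90% or more in 245, and a value between in 28. Narrower peaks had the same shape, with 208 at no base and 644 at 90% or more of 947. Where the mark was present, its peaks reached past both edges of the domain in 150 cases, past a single edge in 96 and past neither in 27. Among the 12 longest domains, HMX3 and HMX2 (97.8%), SP9 (94.8%), SKOR1 (100.0%), HAND2 (99.4%), OLIG2 (100.0%) and NKX2-3 (93.3%) were covered in replicate 2. EN2 was covered to 30.1%, and LBX1, PAX7, LHX2, PAX2 and GATA3 were at 0.0%.

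**Figure D3:**
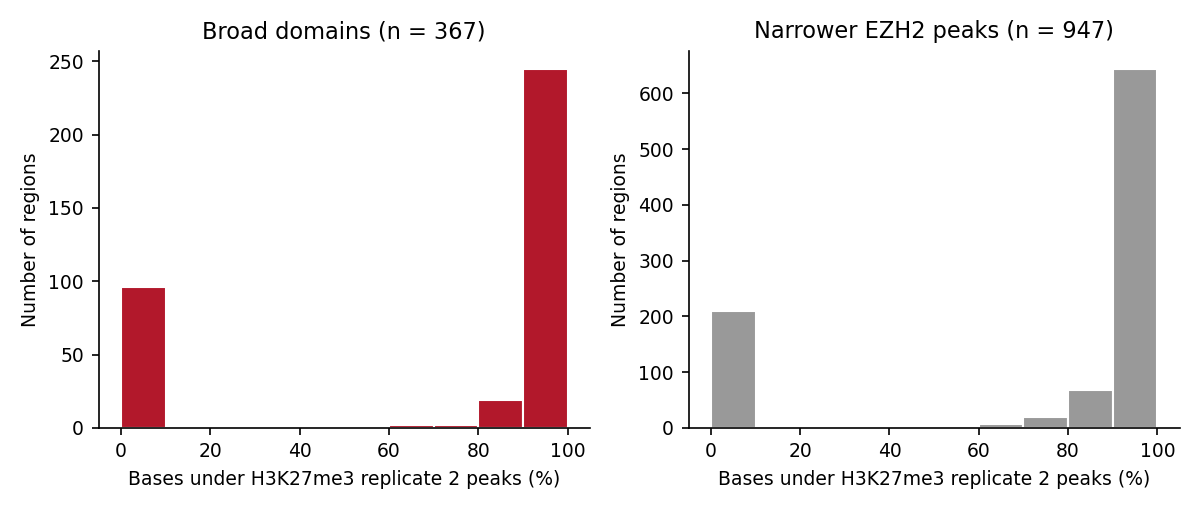
Number of regions by the share of their bases under H3K27me3 replicate 2 peaks, in percent and in bins of 10 points, for 367 broad domains (left) and 947 narrower EZH2 peaks (right). In both sets most regions stand at the ends of the axis, with 94 domains at 0% and 245 at 90% or more.

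The 94 domains without the mark were EZH2 domains like the rest by the EZH2 readouts. Their median EZH2 fold was 9.11 in replicate 1 and 7.44 in replicate 2, against 9.05 and 7.1 in the 273 domains with the mark. Median lengths were 6554 bp and 7122 bp. The flanks were read from the same list that made this split, and a peak across a domain edge could occur only in the 273. The gap next to the domains was thus partly fixed in advance. On the first 5 kb on either side, H3K27me3 replicate 2 covered 8.85% in the 94 and 55.0% in the 273. From 5 to 20 kb away it covered 27.5% and 34.4%, and farther out the order turned, with 27.9% and 21.6% from 20 to 50 kb and 19.5% and 15.3% from 50 to 100 kb. Of 60 pairs of neighbouring domains less than 50 kb apart, 36 had the mark at both, 13 at neither and 11 at a single domain. Domains without the mark were 94 of all 367. By chromosome they were, for example, 11 of 19 on chromosome 11, 11 of 22 on chromosome 17, 8 of 18 on chromosome 9 and 0 of 14 on chromosome 3. These counts are small, and the spread of the mark over chromosomes was not tested. In HOXC, 4 of 5 domains lacked it (HOXC12, HOTAIR, and those at HOXC8 to HOXC4 and at HOXC5 and HOXC6), whereas all 5 domains of HOXD and all 4 of HOXA were covered. HOXB was mixed, with the domains at HOXB3 and at PRAC2, PRAC1 and HOXB13 at 0.0% and that at HOXB2 at 100.0%.

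By gene list, H3K27me3 replicate 2 was at 113 of the 143 domains with a listed factor (79.0%), 103 of the 135 with other protein-coding genes (76.3%) and 57 of the 89 without a protein-coding gene end (64.0%). All 10 forkhead domains and all 7 domains with BMP, TGF-beta, FGF or hedgehog genes carried it. It was at 3 of 7 WNT domains, where the neighbours WNT6 and WNT10A lacked it, and at 3 of 7 neuronal domains, where SLC6A5 and the calcium channel genes CACNA1G and CACNA1H lacked it. With 7 domains a list, these differences rest on few regions and were not tested.

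All 11 domains with a replicate 1 peak also had a replicate 2 peak. Replicate 1 covered all or nearly all of 10 of them. The domains at NR5A2, a nuclear receptor of liver and pancreas, PCDH17, LRFN5 and SLITRK3, which encode adhesion proteins of neurons, were covered to 100.0% in replicate 1. So were those at CLYBL-AS3, near ZIC5, and 2 with no annotated gene end, on chromosome 3 at 147355809 to 147361757 and on chromosome X at 137545954 to 137551531. The homeobox genes MSX1 (99.9%), MSX2 (99.7%) and DLX1 (97.9%) were also marked in both replicates. The H3K27me3 fold in replicate 1 was highest at the chromosome 3 domain (41.52, with 12.56 in replicate 2) and at SLITRK3 (25.59, with 15.37 in replicate 2).

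In replicate 1 the mark stood around the domains instead of over them. Its peaks covered 2.48% of bases inside, 7.2% of the first 5 kb on either side, 17.1% from 5 to 20 kb, 14.0% from 20 to 50 kb and 9.98% from 50 to 100 kb, while the genome as a whole was covered to 3.02%. In replicate 2 coverage was highest inside, at 71.5%, and was 43.2%, 32.6%, 23.2% and 16.3% over the same distances, with a genome value of 5.04%. Narrower peaks had the same dip in replicate 1, with 4.76% inside and 14.5% from 5 to 20 kb. Both H3K27me3 libraries had similar numbers of IP tags, 39.0 M and 38.1 M, but 46173 and 90461 peaks on these chromosomes, and the part of the number of peaks in the dip was not tested.

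**Figure D4:**
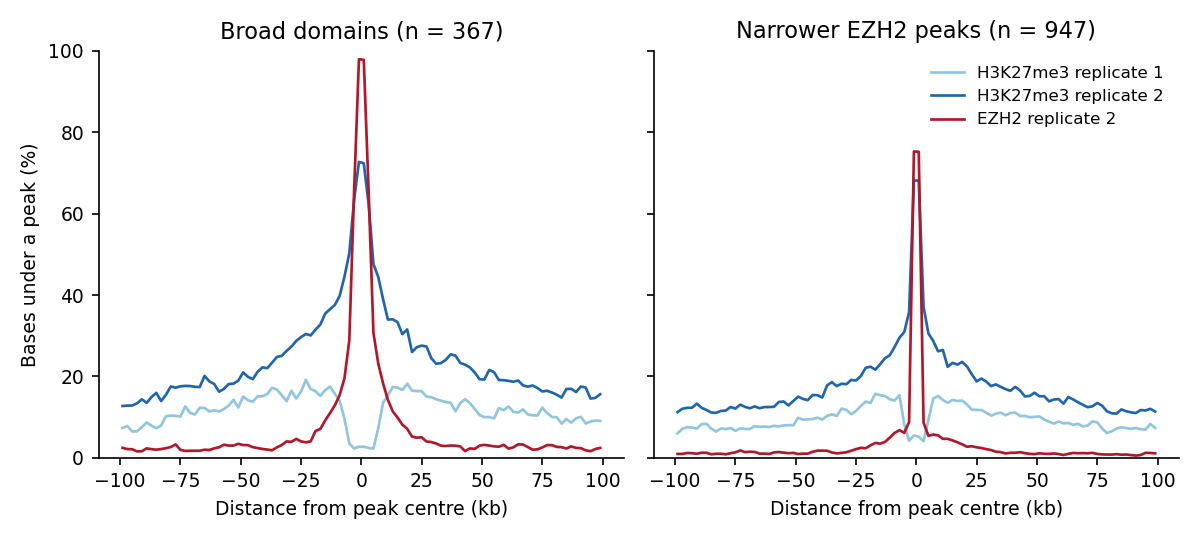
Share of bases under a peak, in percent, by distance from the peak centre in kb and in 2 kb bins, for 367 broad domains (left) and 947 narrower EZH2 peaks (right). H3K27me3 replicate 1 dips at the centre, whereas H3K27me3 replicate 2 and EZH2 replicate 2 peak there.

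JARID2 was compared between the lines to see whether the domains of the non-tumour line were bound in the carcinoma line. Of the 367 domains, 174 (47.4%) overlapped a JARID2 peak of HepG2 replicate 1 and 0 overlapped one of replicate 2. Each count comes from the list of a single library. The THLE-2 replicates had a peak in 29 (7.9%) and 28 domains (7.63%). Among all 2081 EZH2 replicate 1 peaks the HepG2 shares were 29.2% and 0.336% and the THLE-2 shares 3.51% and 3.84%. Except for HepG2 replicate 2, the domains were above this background, but a domain is also longer than the average peak. Per Mb, the domains held 77.2 and 0.0 peaks in HepG2, and narrower peaks held 115 and 0.985. In THLE-2 the domains held 10.5 and 9.52 peaks per Mb and narrower peaks 11.5 and 11.8. Per Mb, a measure that favours short regions because peaks across an edge count, domains held fewer JARID2 peaks than narrower EZH2 peaks in every library. By bases covered, HepG2 replicate 1 had 7.9% in domains and 11.1% in narrower peaks, and HepG2 replicate 2 had 0.0% and 0.17%. THLE-2 replicate 1 had 0.795% and 0.794%, and THLE-2 replicate 2 had 0.766% and 0.811%. Domains held more peaks per Mb than the genome in 3 of 4 libraries (5.18 and 1.34 per Mb in HepG2, 1.77 and 1.82 in THLE-2).

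The share of all JARID2 peaks that lay in domains was 1.45% and 0.0% for the HepG2 replicates, against 0.579% and 0.507% for THLE-2. The means were 0.724% ± 1.02 in HepG2 and 0.543% ± 0.0514 in THLE-2 (SD, n = 2 each), a difference of 0.181 percentage points. By an exact permutation test over the 4 libraries, two-sided, p was 1.0, and 2 against 2 libraries cannot go below 0.3333. The HepG2 replicates lay on either side of the THLE-2 values, so that the groups overlapped. Whether the library labelled HepG2 replicate 2 holds JARID2 was not tested. HepG2 replicate 1 had 15687 peaks from 7.95 M IP tags and HepG2 replicate 2 had 4075 from 14.6 M.

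**Figure D5:**
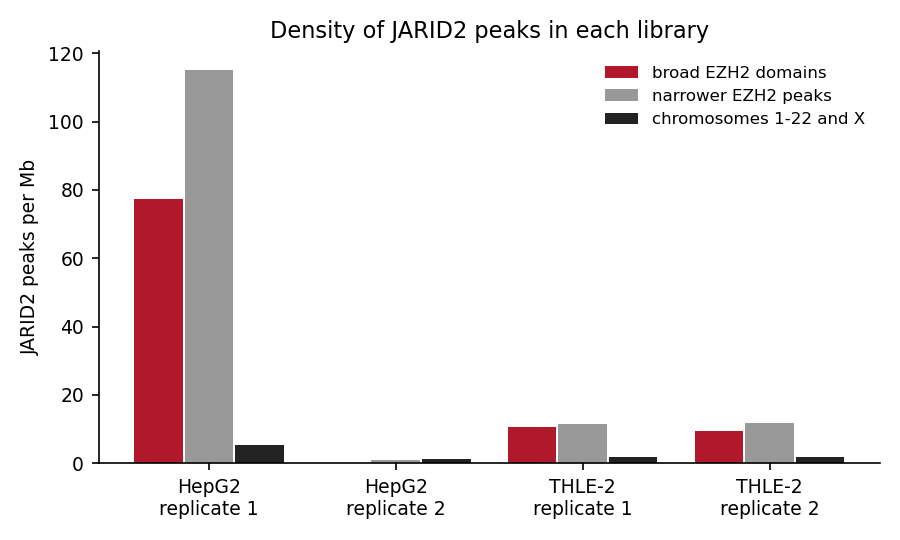
JARID2 peaks per Mb in each of the 4 JARID2 libraries, for broad EZH2 domains (red), narrower EZH2 peaks (grey) and chromosomes 1 to 22 and X as a whole (black). The bars are single libraries without error. HepG2 replicate 1 has the highest density in domains, 77.2 per Mb, and HepG2 replicate 2 has 0.0.

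Most of the domains that HepG2 replicate 1 marked had a single JARID2 peak, and 44 had 2 or more. High JARID2 folds were at CACNA1H (18.51), TBR1 (18.41), SKOR2, a corepressor of Purkinje cells (17.25), ZNF536 (17.07) and POU3F3, a factor of cortical neurons (15.96). By gene list, 71 of the 143 domains with a listed factor (49.7%), 76 of the 135 with other protein-coding genes (56.3%) and 27 of the 89 with no protein-coding gene end (30.3%) had such a peak. Among the lists of transcription factors the share was highest in forkhead domains (8 of 10) and lowest in T-box domains (2 of 8). Over all domains it was 47.4%. These lists rest on few domains, and their differences were not tested. On the chromosomes of the promoter table, 69 of 219 HepG2 replicate 1 JARID2 peaks in domains lay within 1 kb of a protein-coding start. That is 31.5%, against 18.2% of all peaks of this library. In THLE-2 the shares were 21.4% (6 of 28) and 25.0% (7 of 28) in domains, against 6.97% and 8.46% of all peaks. Since 193 of 350 domains held a start, these shares cannot separate the place of JARID2 from that of the domains.

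THLE-2 JARID2 was found in either replicate at 53 domains and in both at 4, against 7 of all 2081 EZH2 peaks in both (0.336%). These calls rest on low MACS scores, since the mean share of domains with a THLE-2 JARID2 peak was 7.77%, and 0.272% with peaks of score 100 or more, and no JARID2 peak at the 4 domains reached that score. The 4 were PAX9, a factor of teeth and vertebrae, FOXA2, a factor of liver and endoderm, BARX1, a factor of stomach, and the long noncoding RNA gene LOC124901368. JARID2 folds were 8.97 and 11.43 at PAX9 for replicates 1 and 2, 13.84 and 7.36 at FOXA2, 9.3 and 9.96 at BARX1, and 6.3 and 10.68 at LOC124901368. PAX9 alone of the 4 also had a HepG2 peak in replicate 1 (fold 11.77). Of the 53 domains, 25 had a HepG2 replicate 1 peak, a share near the 47.4% of all domains. PAX9, FOXA2 and LOC124901368 were covered by H3K27me3 replicate 2 to 99.9%, 98.2% and 100.0%, and BARX1 to 0.0%. In THLE-2, 31 and 28 JARID2 peaks lay in domains and covered 0.795% and 0.766% of domain bases. Their median lengths were 672 and 740 bp, over 28 peaks in each library on the chromosomes of the promoter table. In HepG2, JARID2 covered 7.9% and 0.0%.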

How the data were processed

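The 16 samples are 8 IP and 8 input libraries of 2 cell lines. Of tools, the submitters' processing notes list cutadapt, Bowtie2 and MACS 1.4.2, and of builds GRCh38. The authors ran MACS on every IP library with its matched input, per the file headers, at a p limit of 1e-05, kept no more than 1 tag at a position, and did not pool replicates. The deposited lists give, per the file headers, a tag count, a score (-10 times log10 of p), a fold enrichment (a ratio over local input), a false discovery rate in percent and a length in bases for each peak. The region depth is known only as these tag counts, so a region without a peak is one where the lists used here hold none, and whether they hold every called peak is not known.

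Overlap (1 bp or more) and coverage were computed in Python 3.11.15 (numpy 2.4.6, pandas 2.3.3, scipy 1.17.1), tested on simulated intervals. No filter was put on scores. Overlapping peaks of a list were merged for coverage. Gene ends come from RefSeq GRCh38.p14, which here has no strand, and both ends count. Starts and promoters come from the RefSeq promoter table, which covers 202 of the 299 genes. Correlations use log2 values. The test of JARID2 between lines is an exact permutation over 4 libraries. Its p is the share of relabelings of these libraries with a difference in means at least as large.

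The named regions are the 12 longest domains, the 12 highest in EZH2 replicate 2 fold, HOX domains, domains with THLE-2 JARID2 in both replicates, the 5 with most H3K27me3 replicate 1 coverage, 3 on either side of the length limit and up to 5 members a gene list, of which some are not reported here. DMRTA2, MECOM, EBF3, SIM1, CHAT, SLC18A3, GCGR and the domains highest in HepG2 JARID2 were chosen after their values were seen. The members and gene lists were chosen with earlier results of these data known. Alternatives were other length limits, stricter scores, exchanged replicates, other gene rules and libraries left out.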

Additional observations from a re-analysis of the deposited data

Results flagged for a closer look

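EZH2 replicate 1 held 32 further peaks of 5000 bp or more that no replicate 2 peak touched, a signal that the comparisons above do not use. They include the longest peak of the replicate 1 list, at FOXF1, a forkhead gene of lung and gut mesenchyme, with 31723 bp, 6220 tags, a fold of 15.67 and a MACS score of 108.52. EN1 (21661 bp, fold 18.12), SIM2 (20406 bp, 15.16), GBX2 (16756 bp, 11.56) and MNX1 (15552 bp, 15.65) are also among them, as are 2 stretches at HOXA9 and HOXA10. So 5 of the 32 reached 15 kb, against 19 of the 367 domains. The median fold of the 32 was 7.56, against 9.05 in the domains. H3K27me3 replicate 2 overlapped 20 of them (62.5%), near the 66.4% of all 2081 EZH2 replicate 1 peaks and below the 74.4% of the domains. HepG2 JARID2 replicate 1 overlapped 19 of the 32, against 29.2% of all 2081 and 47.4% of the domains. The nearest EZH2 replicate 2 peak was within 1000 bp in 6 of the 32. The reverse case also occurred: of 389 EZH2 replicate 2 peaks of this length, 39 had no replicate 1 peak, led by UNCX (29811 bp, fold 14.02), EMX2 (24312 bp, 9.13) and PAX6 (19356 bp, 6.36). Why strong and long peaks were listed in a single replicate was not tested.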

How the results depend on the processing

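The number of domains was 601 with a minimum of 4000 bp and 154 with 7500 bp, against 367. With replicate 2 covering at least 50% of the domain, with replicates exchanged, with a score of 100 or more, without EZH2 replicate 2 and with domains under 1000 bp apart joined (chosen after seeing the data), it stayed between 338 and 399. Genes with an end in a domain came to 64 when the whole gene had to lie inside, 469 at 4000 bp and 149 at 7500 bp, against 299. EZH2 replicate 2 coverage was 88.4% with peaks of score 100 or more, against 92.1%. H3K27me3 coverage of domains was 71.5% without replicate 1 and 2.48% without replicate 2. Domains minus narrower peaks in H3K27me3 coverage was -4.43 at 4000 bp, -1.54 at 7500 bp and -2.02 with stricter peaks, against -2.51, and -2.73 to -2.28 with a replicate left out. The mean THLE-2 JARID2 share of domains was 6.57% at 4000 bp, 9.74% at 7500 bp and 0.272% with peaks of score 100 or more, against 7.77%, and 7.63% to 7.9% with a replicate left out. So nearly all THLE-2 JARID2 peaks in domains had low scores. The HepG2 share was 6.68% with such peaks (13.4% and 0.0% by replicate), against 23.7%, and 0.0% to 47.4% with a replicate left out. HepG2 minus THLE-2 in the share of JARID2 peaks turned to -0.543 without HepG2 replicate 1, where the exact p is 0.3333, the smallest that 1 against 2 libraries allow, and was -0.543 to 0.904 over all replicates left out. With same-numbered libraries as a replicate block it was 0.181, with an exact p of 1.0, and the numbers pair nothing beyond a shared label. The cause of these moves was not tested. The part of depth was not tested either, and of the JARID2 libraries HepG2 replicate 1 had the fewest IP tags (7.95 M) and the most peaks (15687).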
